A study of Mus musculus with 6 samples.

Results

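Levels of 8 genes that encode transcription factors of Th9 and Th2 cells were followed through 6 RNA sequencing libraries of mouse CD4 T cells. The genes were Sfpi1, Etv5, Gata3, Batf, Batf3, Bhlhe40, Id2 and Id3, chosen by their symbol, and all 8 were found among the 23091 gene symbols measured. Each had 1 entry per library.

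Th9 cells are helper T cells named for the cytokine interleukin 9 and arise under interleukin 4 and transforming growth factor β, while Th2 cells arise under interleukin 4. Gata3 is the lineage-defining factor of Th2 cells. Sfpi1 encodes PU.1, an Ets family factor of myeloid and B cell development that also promotes Il9 transcription in Th9 cells, and Etv5 encodes another Ets factor that acts on the Il9 gene. Batf and Batf3 encode small AP-1 factors that bind DNA with Jun proteins and with Irf4. Bhlhe40 encodes a basic helix-loop-helix repressor that restrains Il10 in T cells. Id2 and Id3 encode helix-loop-helix proteins without a DNA-binding region, which hold E proteins away from DNA.

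All groups started from naive CD4 T cells of wild-type C57/Bl6j mice aged 7 weeks, activated on plates bearing anti-CD3 and anti-CD28. The medium of every culture held IL-4 (20 ng/ml), TGFβ (2 ng/ml) and a blocking antibody to IFNγ. The Th9 + IL-1β arm also had 10 ng/ml IL-1β and the Th9 arm had none. Each arm gave 1 library after 1 h of culture, 1 after 3 days, and 1 in vivo. For the in vivo libraries, 3-day cultures of CD45.2 cells were injected into CD45.1 hosts, from which the donor cells were sorted after 1 week. The sources used here give neither the tissue they were recovered from nor the number of mice. The 1 h libraries came from rRNA-depleted RNA and the other 4 from poly(A)-selected RNA.

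Values are the authors' FPKM, a fragment count scaled to transcript length and library size, each with a deposited interval. With 1 library per group, no difference within a stage has a replicate check. A call needed 3 things: a ratio of (FPKM + 1) of 2-fold or more, 5 FPKM in the larger library, and deposited intervals that lay apart. Between 7313 and 8154 symbols reached 5 FPKM in the poly(A)-selected libraries, against 631 and 765 in the 1 h libraries. All 9 T cell markers of a fixed list were above 0 in every library, and they summed to between 1946 and 2485 FPKM in the poly(A)-selected libraries. Il9, the gene of the cytokine that names the lineage, was listed at 0 at 1 h. At day 3 it stood at 274 FPKM with IL-1β, against 39.8 FPKM without it, and in vivo at 49.6 FPKM with IL-1β, against 59.5 FPKM without it. In vivo, 8 epithelial markers summed to 17036 FPKM with IL-1β, against 6572 FPKM without it. At day 3 they summed to 14.5 FPKM with IL-1β, against 13.2 FPKM without it. In bulk samples such as these fewer cells of a type and less RNA per cell cannot be told apart.

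Gata3, Batf and Id2 had the highest FPKM of the 8 genes from day 3 onward. On mm9 they lie on chromosome 2 at 9778705 to 9800227 (Gata3), chromosome 12 at 87027670 to 87050037 (Batf) and chromosome 12 at 25778664 to 25780957 (Id2). Bhlhe40 lies on chromosome 6 at 108610623 to 108616919 and Id3 on chromosome 4 at 135699737 to 135701307. FPKM is scaled to annotated length, but ratios between libraries still moved with length at day 3, so the order of genes of different length is a description only. Without IL-1β at day 3, Gata3 stood above 98.9% of all symbols, Batf above 97.9% and Id2 above 96.5%. The order at day 3 without IL-1β was Gata3, Batf, Id2, Bhlhe40, Batf3, Id3, Etv5 and Sfpi1. The intervals of Batf and Id2, of Batf3 and Id3, and of Etv5 and Sfpi1 overlapped there, so these neighbours were not separated. In vivo with IL-1β, Id2 (128 FPKM) and Gata3 (125 FPKM) led the order with overlapping intervals, whereas in vivo without IL-1β Gata3 (209.6 FPKM) lay clear of Batf (120.1 FPKM).

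**Figure D1:**
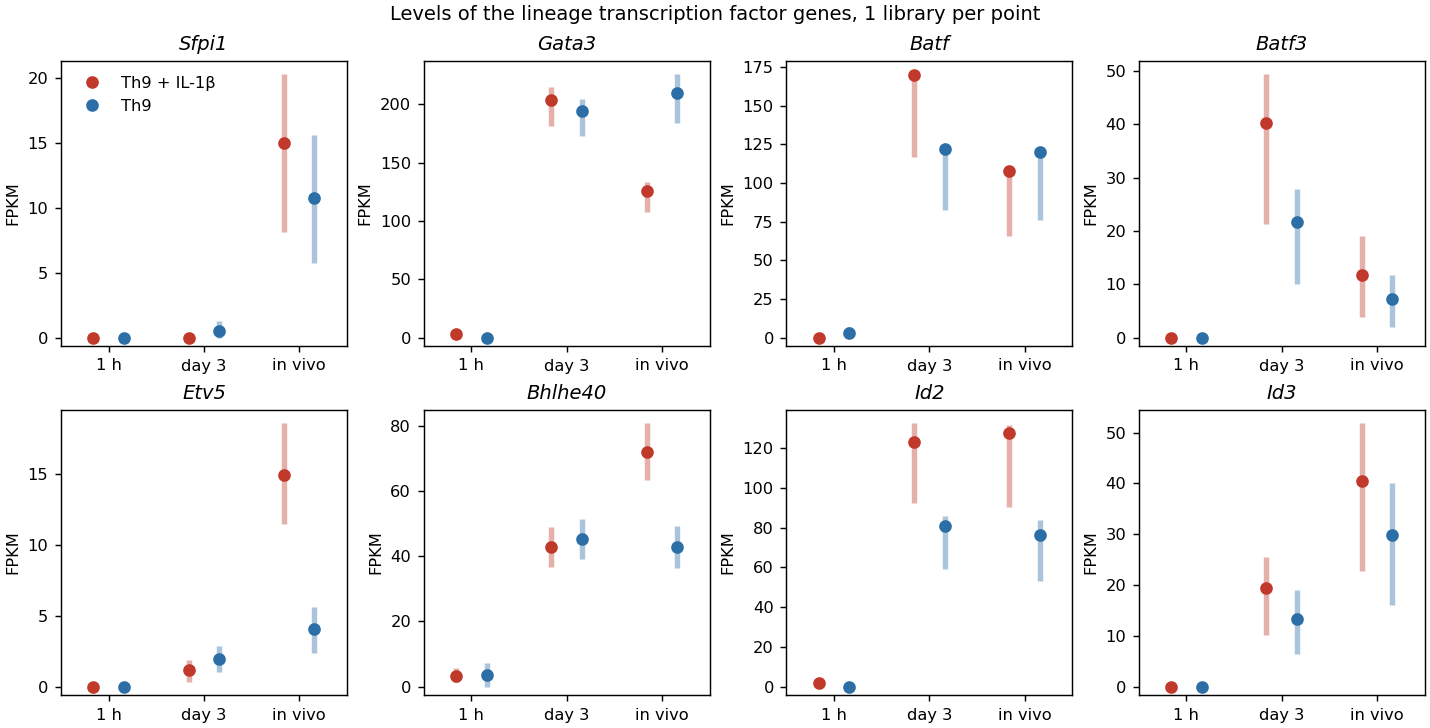
FPKM (vertical axis) of each gene at 1 h, day 3 and in vivo, with Th9 + IL-1β libraries in red and Th9 libraries in blue. Each point is 1 library and each bar is its deposited interval. Sfpi1 is near 0 in culture and between 10.7 and 15.0 FPKM in vivo, and Etv5 reaches 15.0 FPKM only in the in vivo library with IL-1β.

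The start regions of Etv5 and Batf3, which were called in comparisons of the IL-1β arm, and of the related Id2 and Id3 are shown to compare motifs of the factors themselves. The sequences are those of RefSeq on GRCm38.p6, a later build than the mm9 of the expression files. Of the 8 genes 6 matched an entry, all but Sfpi1 and Bhlhe40. Each window runs 5′ to 3′ on the gene's strand, from 250 bases before the start to 50 after. Capitals mark matches on either strand to 5 motifs. TGANTCA is the AP-1 site that Batf proteins bind with Jun proteins. The E-box bound by Bhlhe40 was searched as CACGTG. The GATA motif was searched as GATAAG. The Ets motif, which PU.1 and Etv5 bind, was searched as GGAAGT. A GC-rich Smad element known from Id genes was searched as GGCGCC.
Etv5, chr16:22438319-22438618, minus strand: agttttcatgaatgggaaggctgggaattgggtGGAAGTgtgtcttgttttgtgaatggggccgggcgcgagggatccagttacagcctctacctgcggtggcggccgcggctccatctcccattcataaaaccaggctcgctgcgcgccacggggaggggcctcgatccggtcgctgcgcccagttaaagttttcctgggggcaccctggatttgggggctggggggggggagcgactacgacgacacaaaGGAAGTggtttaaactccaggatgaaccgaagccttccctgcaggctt
Etv5, chr16:22439521-22439820, minus strand: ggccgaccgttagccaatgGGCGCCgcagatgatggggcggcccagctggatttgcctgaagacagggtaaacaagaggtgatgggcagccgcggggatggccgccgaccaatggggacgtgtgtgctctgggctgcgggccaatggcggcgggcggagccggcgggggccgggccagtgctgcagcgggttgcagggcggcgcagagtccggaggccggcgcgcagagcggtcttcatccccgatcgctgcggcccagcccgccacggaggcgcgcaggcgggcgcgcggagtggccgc
Batf3, chr1:191098164-191098463, plus strand: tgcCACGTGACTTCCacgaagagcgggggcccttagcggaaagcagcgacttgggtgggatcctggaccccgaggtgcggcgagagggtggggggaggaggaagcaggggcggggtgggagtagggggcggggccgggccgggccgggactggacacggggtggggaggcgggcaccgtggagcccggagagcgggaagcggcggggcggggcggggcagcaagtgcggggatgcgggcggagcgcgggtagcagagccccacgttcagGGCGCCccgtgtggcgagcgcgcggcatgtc
Id2, chr12:25096043-25096342, minus strand: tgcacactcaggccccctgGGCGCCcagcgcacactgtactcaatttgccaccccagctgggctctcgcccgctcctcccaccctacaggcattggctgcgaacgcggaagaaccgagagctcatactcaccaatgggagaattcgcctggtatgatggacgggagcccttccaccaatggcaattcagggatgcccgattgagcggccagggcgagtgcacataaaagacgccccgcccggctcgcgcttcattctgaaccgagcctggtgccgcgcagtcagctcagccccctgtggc
Id3, chr4:136143572-136143871, plus strand: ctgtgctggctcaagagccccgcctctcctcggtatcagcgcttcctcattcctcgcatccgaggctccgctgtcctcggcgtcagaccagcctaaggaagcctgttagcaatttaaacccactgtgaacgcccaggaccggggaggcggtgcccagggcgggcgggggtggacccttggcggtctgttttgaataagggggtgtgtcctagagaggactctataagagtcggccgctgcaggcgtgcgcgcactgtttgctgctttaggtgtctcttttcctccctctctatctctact

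The first Etv5 window held 2 matches to GGAAGT, beginning at bases 34 and 253 of the window. The Batf3 window held CACGTG from base 4, next to and not overlapping the reverse complement of GGAAGT from base 10, and GGCGCC from base 270. GGCGCC also began at base 20 in the second Etv5 window and in that of Id2, and the Id3 window held none of the 5. Of the genes not shown, the Gata3 window held GGCGCC from bases 39 and 277, and that of Batf the reverse complement of GGAAGT from base 172. Of 32851 promoter windows of this length, 23.8% held GGAAGT, 7.15% held CACGTG, 11.9% held GGCGCC, 7.81% held TGANTCA and 7.44% held GATAAG. The last 2 motifs were in none of the 7 windows of the 6 genes. A match is a description of the letters and not a binding site.

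The first question was how IL-1β changed these genes at the start of culture. None of the 8 reached 5 FPKM in either 1 h library, so none was compared. Over all genes compared at that stage, 7.72% were called higher and 0.214% lower. Sfpi1, Batf3, Etv5 and Id3 were listed at 0 in both libraries. Gata3 had 3.29 FPKM (interval 1.43 to 5.14) with IL-1β, and 0 was listed for it without. Batf was listed at 0 with IL-1β, against 2.84 FPKM (0 to 7.10) without it. Bhlhe40 was the one gene above 0 in both, at 3.41 FPKM (1.55 to 5.58) with IL-1β, against 3.61 FPKM (0 to 7.23) without it. Id2 stood at 1.63 FPKM (0 to 3.61) with IL-1β, and 0 was listed without. The 9 T cell markers were also low at this stage and summed to 84.7 FPKM with IL-1β, against 61.1 FPKM without it.

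At day 3 the question was how IL-1β changed the factors in the Th9 cells formed in culture. None of the 8 genes was called, against 1.29% of all compared genes called higher and 2.15% called lower. Sfpi1 was listed at 0 in the IL-1β arm, against 0.488 FPKM (0 to 1.24) in the Th9 arm, while Etv5 stood at 1.17 FPKM (0.317 to 1.90) with IL-1β, against 1.98 FPKM (1.01 to 2.89) without it. Both were therefore under 5 FPKM and were not compared. The other 6 genes had a median log2 ratio of 0.49, beside -0.05 over all compared genes.

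Gata3 was close between the arms at day 3, at 204 FPKM (182 to 215) with IL-1β, against 194 FPKM (173 to 205) without it, a log2 ratio of 0.07. Bhlhe40 was also close, at 42.9 FPKM (36.6 to 49.1) with IL-1β, against 45.3 FPKM (39.3 to 51.4) without it. Their intervals overlapped widely. Batf stood at 169.7 FPKM (117 to 170.4) with IL-1β, against 122 FPKM (82.4 to 120.2) without it, a log2 ratio of 0.47 with overlapping intervals. Its relative Batf3, best known as a factor of cross-presenting dendritic cells, had the largest ratio of the 6, at 40.3 FPKM (21.3 to 49.4) with IL-1β, against 21.7 FPKM (10.1 to 27.9) without it. That log2 ratio of 0.86 was under 2-fold, and the intervals overlapped.

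Id2 was the one gene of the 8 whose intervals lay apart at day 3, at 123 FPKM (92.5 to 133) with IL-1β, against 81.1 FPKM (59.4 to 85.9) without it. Its log2 ratio of 0.60 was under 2-fold. Id3 stood at 19.3 FPKM (10.2 to 25.5) with IL-1β, against 13.2 FPKM (6.37 to 19.1) without it, a log2 ratio of 0.51 with overlapping intervals. Intervals lay apart at any fold in 5.69% of all compared genes upward and in 12.7% downward.

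The day 3 ratios moved with transcript length. Across 6942 genes the Spearman correlation of length and log2 ratio was -0.57, where genes are not independent replicates. The longest annotated transcripts of Batf3, Batf, Id3 and Id2 have 801, 955, 1278 and 1969 bases, and those of Bhlhe40, Gata3 and Etv5 have 3113, 3215 and 3975 bases. With the length trend removed, the log2 ratio of Batf was 0.05, that of Batf3 0.41, that of Id3 0.21 and that of Id2 0.47, and the intervals of Id2 then overlapped.

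In vivo, 1 of the 8 genes was called, Etv5, which was higher in the IL-1β arm. All 8 passed the 5 FPKM minimum and were compared. Over all compared genes 6.23% were called higher and 3.48% lower. Another 3 genes had intervals apart at less than 2-fold, with Bhlhe40 and Id2 above and Gata3 below their level in the Th9 arm. Intervals apart at any fold were found upward in 9.91% and downward in 8.33% of all compared genes. The median log2 ratio of the 8 was 0.54, beside 0.03 over all compared genes.

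Etv5 stood at 15.0 FPKM (11.5 to 18.6) in vivo with IL-1β and 4.06 FPKM (2.36 to 5.64) without, which is 3.15-fold higher in (FPKM + 1), or 1.66 on the log2 scale. The gene lies on mm9 chromosome 16, 22381386 to 22439643. Etv5 is also a known factor of alveolar type II cells of the lung. Epithelial markers moved with it, as 6 of the 7 compared members of that list were called higher, among them the surfactant gene Sftpc at 10010.5 FPKM with IL-1β, against 3512 FPKM without it. Of the 5 stromal markers 4 were also called higher, and the list summed to 100.4 FPKM with IL-1β, against 35.8 FPKM without it. The part of these cells in the Etv5 difference was not tested.

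Sfpi1 stood at 15.0 FPKM (8.12 to 20.3) in vivo with IL-1β and 10.7 FPKM (5.73 to 15.6) without, a log2 ratio of 0.45 with overlapping intervals. Markers of the myeloid list summed to 2872 FPKM with IL-1β, against 1137 FPKM without it. Some of them accompany PU.1 in macrophages and neutrophils. Others (H2-Aa, H2-Ab1, H2-Eb1 and Cd74) are genes of MHC class II presentation and not particular to myeloid cells. Of the 12 compared members of that list 4 were called higher (Lyz1, Lyz2, Csf1r and Cd74), and Lyz2 stood at 1614 FPKM with IL-1β, against 521 FPKM without it. Lyz2 was the largest member of each sum. Its log2 ratio was 1.63, beside 1.51 for the epithelial marker Sftpc and a median of 0.87 over the compared myeloid markers. The macrophage marker Marco was listed at 0 in both libraries, and the list members Emr1 and Itgam stayed under 5 FPKM in both. Which cells the Lyz2 RNA came from was not tested, so the sum cannot be read as myeloid RNA alone.

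Gata3 was the one gene of the 8 with a lower, separate interval in vivo with IL-1β, at 125 FPKM (107 to 134) against 209.6 FPKM (184 to 226) without. The log2 ratio was -0.74, under 2-fold, and was -0.56 with intervals still apart when both libraries were scaled to equal summed T cell markers. Those markers summed to 1946 FPKM with IL-1β, against 2197 FPKM without it. They moved both ways, with Cd2 at 418 FPKM with IL-1β, against 579 FPKM without it, and Cd247 at 274 FPKM against 219 FPKM. The scaled ratio thus depends on which markers are summed, and this scaling was chosen after seeing the data. Batf was close between the arms, at 108 FPKM (65.9 to 107) with IL-1β, against 120.1 FPKM (76.1 to 119.9) without it. Both Batf values lay above their own upper bound, as did that of the day 3 library without IL-1β. Some other values given here did so too, such as Il9 at day 3 with IL-1β (274 FPKM, interval 149 to 227). In vivo with IL-1β they included Junb (703 FPKM, 583 to 660), Lyz2 (1614 FPKM, 1186 to 1341) and Sftpc (10010.5 FPKM, 6770 to 7159). In that library 319 entries lay above their own upper bound. Batf3 stood at 11.7 FPKM (3.80 to 19.0) with IL-1β, against 7.25 FPKM (1.95 to 11.7) without it, a log2 ratio of 0.62 with overlapping intervals.

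Bhlhe40 stood at 72.1 FPKM (63.6 to 80.8) in vivo with IL-1β and 42.9 FPKM (36.4 to 49.4) without. Its log2 ratio was 0.73, with intervals apart and under 2-fold. Il10, the cytokine gene that Bhlhe40 is known to restrain, was called higher in the same library, at 23.1 FPKM with IL-1β, against 3.24 FPKM without it. Id2 stood at 128 FPKM (90.4 to 132) with IL-1β, against 76.2 FPKM (53.0 to 84.1) without it, a log2 ratio of 0.74 with intervals apart. Id3 stood at 40.4 FPKM (22.7 to 51.8) with IL-1β, against 29.9 FPKM (16.0 to 40.1) without it, a log2 ratio of 0.42 with overlapping intervals. In vivo the Spearman correlation of length and log2 ratio was 0.00 across 7245 genes, and the log2 ratios of Etv5 (1.65), Bhlhe40 (0.73), Id2 (0.73) and Gata3 (-0.74) were near unchanged with the trend removed.

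**Figure D2:**
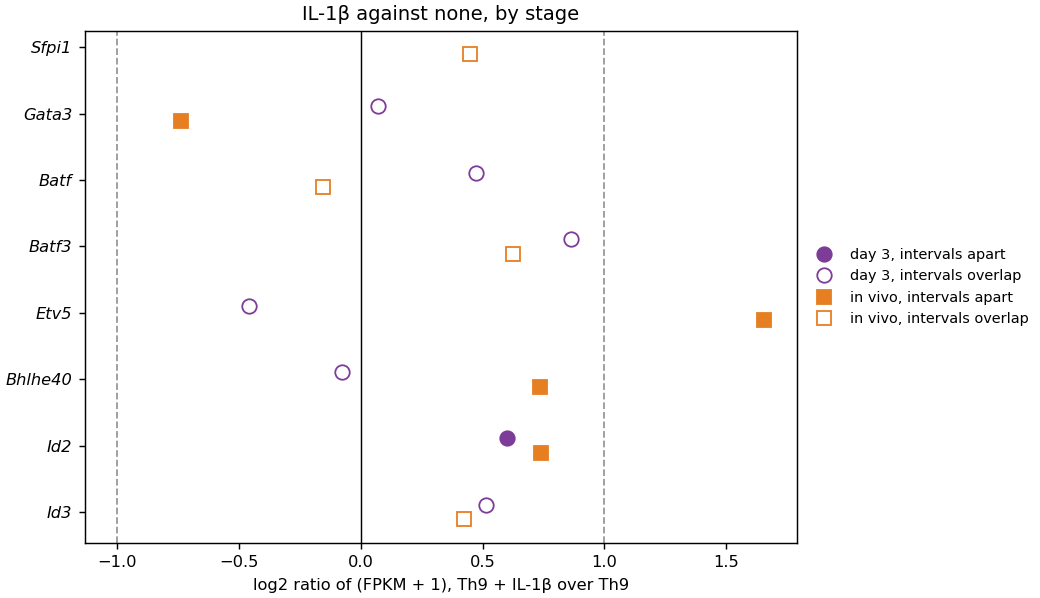
Log2 ratio of (FPKM + 1), Th9 + IL-1β over Th9 (horizontal axis), for each gene at day 3 (circles) and in vivo (squares). Filled marks have intervals apart, and dashed lines mark 2-fold. Etv5 in vivo, at 1.66, is the one mark beyond 2-fold. Sfpi1 at day 3 is left out because it was listed at 0 with IL-1β.

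A difference common to the stages was examined with limma on log2 of (FPKM + 1), with the 3 stages as a covariate and 2 residual degrees of freedom. Of 8946 genes limma called none (0%), and 320 had an unadjusted p under 0.05. Id2 was the one of the 8 genes among those 320. Its log2 difference was 0.91 (SE 0.32, 95% interval 0.18 to 1.64), with an unadjusted limma p of 0.0205 and an adjusted p of 0.937. Id2 was higher in value with IL-1β at 3 of 3 stages, but at 1 h it was under 5 FPKM and listed at 0 without IL-1β. Without the 1 h stage its limma log2 difference was 0.67 (95% interval -0.10 to 1.44), with an unadjusted limma p of 0.0762. With a pseudocount of 0.1 over all stages the unadjusted limma p was 0.104. Batf3 had a limma log2 difference of 0.50 (SE 0.32, 95% interval -0.24 to 1.23), with an adjusted p of 0.937. Gata3 had a limma log2 difference of 0.48 (95% interval -0.70 to 1.65), which was -0.33 without the 1 h stage. The other 5 genes had adjusted limma p-values between 0.938 and 0.993. The direction for Gata3 thus came from the 1 h libraries, where it was listed at 0 without IL-1β.

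Day 3 was also set against 1 h in each arm, where time and RNA selection cannot be told apart. Sfpi1 and Etv5 were under 5 FPKM at both times in each arm and were not compared. The other 6 of the 8 genes were all called higher at day 3 in both arms. This was also true of 95.5% of all compared genes with IL-1β and of 95.7% without, while 0.595% with and 0.299% without were called lower, so the count of these genes is at the background. Batf stood at 122 FPKM at day 3 and 2.84 FPKM at 1 h without IL-1β, and Gata3 at 204 FPKM at day 3 and 3.29 FPKM at 1 h with IL-1β. Bhlhe40 stood at 45.3 FPKM at day 3 and 3.61 FPKM at 1 h without IL-1β, a log2 ratio of 3.33, and at 42.9 FPKM at day 3 and 3.41 FPKM at 1 h with it. Over all compared genes the median log2 ratio was 3.44 without IL-1β and 3.25 with it. With the median log2 ratio set to 0, that of Bhlhe40 was 0.17 without and 0.31 with IL-1β, and it was called in neither arm.

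Transfer into mice was examined next, by comparing the in vivo libraries with day 3 in each arm. Sfpi1 was called higher in vivo in both arms, Etv5 was called higher and Batf3 lower in the IL-1β arm, and Gata3, Batf, Bhlhe40, Id2 and Id3 were called in neither. Over all compared genes, 12% were called higher and 5.87% lower with IL-1β, and 2.13% higher and 0.665% lower without.

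Sfpi1, on mm9 chromosome 2 at 90936954 to 90955913, stood at 15.0 FPKM in vivo with IL-1β and was listed at 0 at day 3 with IL-1β. Without IL-1β it stood at 10.7 FPKM in vivo and 0.488 FPKM at day 3, a log2 ratio of 2.98. The intervals lay apart in both arms. In the limma fit, with arm as a covariate, the log2 difference of Sfpi1 between in vivo and day 3 was 3.49 (SE 0.40, 95% interval 2.57 to 4.41), with an adjusted p of 0.00338. Limma called 2.26% of all genes in this contrast, and Sfpi1 was the one of the 8 called. Its adjusted limma p was 0.0275 without the 1 h stage, 0.163 with a pseudocount of 0.1, 0.110 without a filter on low values, 0.175 after quantile normalization and 0.258 with equal upper quartiles, so the call depended on these settings.

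Markers of the myeloid list moved with Sfpi1. Of 15 such markers, 11 of the 12 compared were called higher in vivo with IL-1β and 8 of the 10 compared without. The MHC class II presentation genes H2-Aa, H2-Ab1, H2-Eb1 and Cd74, not particular to myeloid cells, were among those called in both arms. With IL-1β, Lyz2 stood at 1614 FPKM in vivo and 4.25 FPKM at day 3, and Tyrobp, an adaptor gene of myeloid and NK cells, at 62.0 FPKM in vivo and 3.31 FPKM at day 3. Without IL-1β, Lyz2 stood at 521 FPKM in vivo and was listed at 0 at day 3. The summed list stood at 2872 FPKM in vivo and 181 FPKM at day 3 with IL-1β, and at 1137 FPKM in vivo and 138 FPKM at day 3 without. Lyz2 was the largest member of both in vivo sums, and its cell source was not tested. Emr1 and Itgam, also on the list, stayed under 5 FPKM in all 6 libraries. Spib, the Ets gene closest to PU.1, which marks B cells, stayed between 0.703 and 2.44 FPKM in all 6 libraries. B cell markers, of the other lineage that uses PU.1, summed to 28.9 FPKM in vivo and 21.6 FPKM at day 3 with IL-1β, and to 45.1 FPKM in vivo and 21.5 FPKM at day 3 without. With IL-1β 1 of the 2 compared was called higher in vivo, Cd79a, at 12.6 FPKM against 3.77 FPKM at day 3. Without IL-1β it was 1 of 3, Cd79b, at 23.8 FPKM against 9.43 FPKM at day 3. The part of myeloid and B cells in the Sfpi1 difference was not tested.

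**Figure D3:**
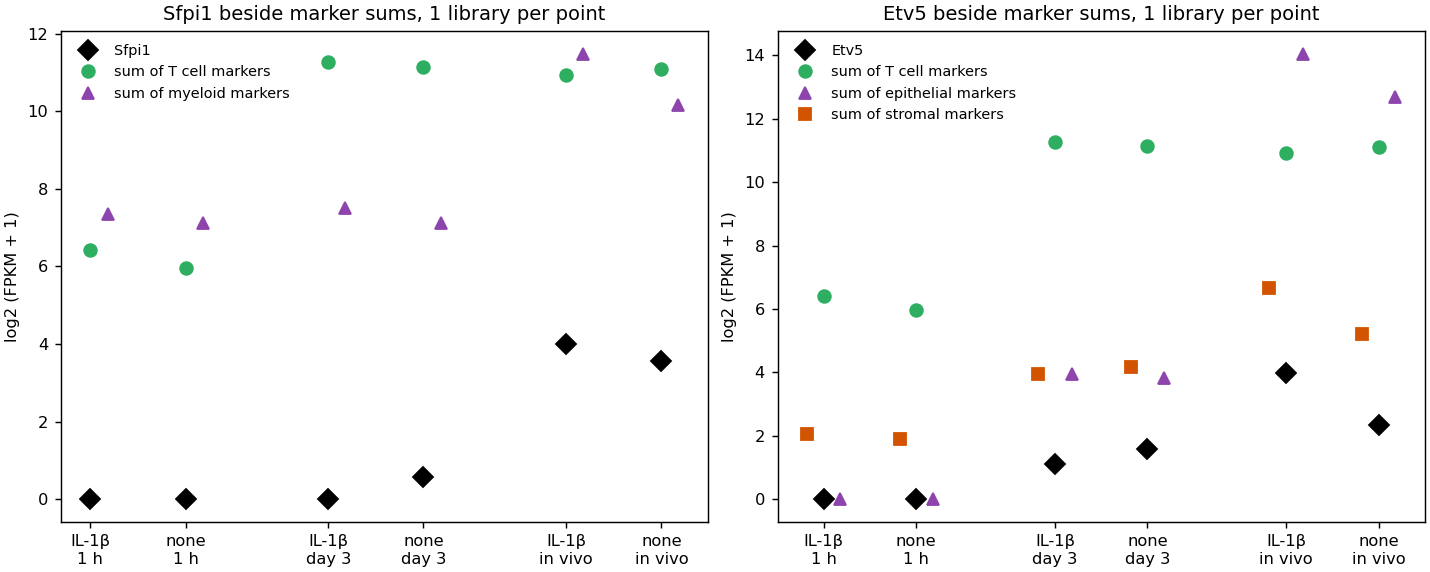
Log2 of (FPKM + 1) on the vertical axis, for Sfpi1 (left) and Etv5 (right) as black diamonds beside summed marker lists, with 1 library per point and stages from left to right. T cell markers stay between 1946 and 2485 FPKM from day 3 onward, while myeloid, epithelial and stromal sums stand highest in vivo with IL-1β, as do the values of Sfpi1 and Etv5.

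Etv5 stood at 15.0 FPKM in vivo and 1.17 FPKM at day 3 with IL-1β, a log2 ratio of 2.88 with intervals apart. Without IL-1β it stood at 4.06 FPKM in vivo and 1.98 FPKM at day 3, under the 5 FPKM minimum, with overlapping intervals. In the limma fit the log2 difference of Etv5 was 1.82 (SE 0.53), with an adjusted p of 0.214. All 7 compared epithelial markers were called higher in vivo with IL-1β, and all 4 compared without.

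Batf3, on mm9 chromosome 1 at 192922293 to 192932822, stood at 11.7 FPKM in vivo and 40.3 FPKM at day 3 with IL-1β, a 3.25-fold lower value of (FPKM + 1) in vivo. Without IL-1β it stood at 7.25 FPKM in vivo and 21.7 FPKM at day 3, a log2 ratio of -1.46 whose intervals overlapped by a small margin (1.95 to 11.7 in vivo and 10.1 to 27.9 at day 3). In the limma fit the log2 difference of Batf3 was -1.58 (SE 0.39), with an adjusted p of 0.118. In vivo ratios of the IL-1β arm also moved with length (Spearman correlation 0.42 across 6850 genes). With that trend removed the log2 ratio of Batf3 in the IL-1β arm was -1.11 and the intervals overlapped, so that it was no longer called.

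Id3 was higher in value in vivo in both arms, at 40.4 FPKM in vivo and 19.3 FPKM at day 3 with IL-1β, and at 29.9 FPKM in vivo and 13.2 FPKM at day 3 without. The log2 ratios were 1.03 with IL-1β and 1.12 without, and the intervals overlapped in each arm. In the limma fit the log2 difference of Id3 was 1.07 (SE 0.37), with an adjusted p of 0.381. With the length trend removed, Id3 was called higher in the IL-1β arm at a log2 ratio of 1.45. Id2 was close between the stages, at 128 FPKM in vivo and 123 FPKM at day 3 with IL-1β, and 76.2 FPKM in vivo and 81.1 FPKM at day 3 without. Its log2 ratios were 0.05 with IL-1β and -0.09 without.

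Gata3, Batf and Bhlhe40 were close between in vivo and day 3 without IL-1β, with log2 ratios of 0.11, -0.02 and -0.08. With IL-1β the intervals of all 3 lay apart at less than 2-fold. Gata3 stood at 125 FPKM in vivo and 204 FPKM at day 3, a log2 ratio of -0.70. Batf stood at 108 FPKM in vivo and 169.7 FPKM at day 3, a log2 ratio of -0.65, which was -0.10 with the length trend removed. Bhlhe40 stood at 72.1 FPKM in vivo and 42.9 FPKM at day 3, a log2 ratio of 0.74. In the limma fit the log2 differences of these 3 genes were -0.29 for Gata3, -0.34 for Batf and 0.33 for Bhlhe40, with adjusted p-values of 0.967, 0.960 and 0.946. Intervals apart at any fold were found upward in 20.8% and downward in 14.1% of all compared genes of this arm.

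**Figure D4:**
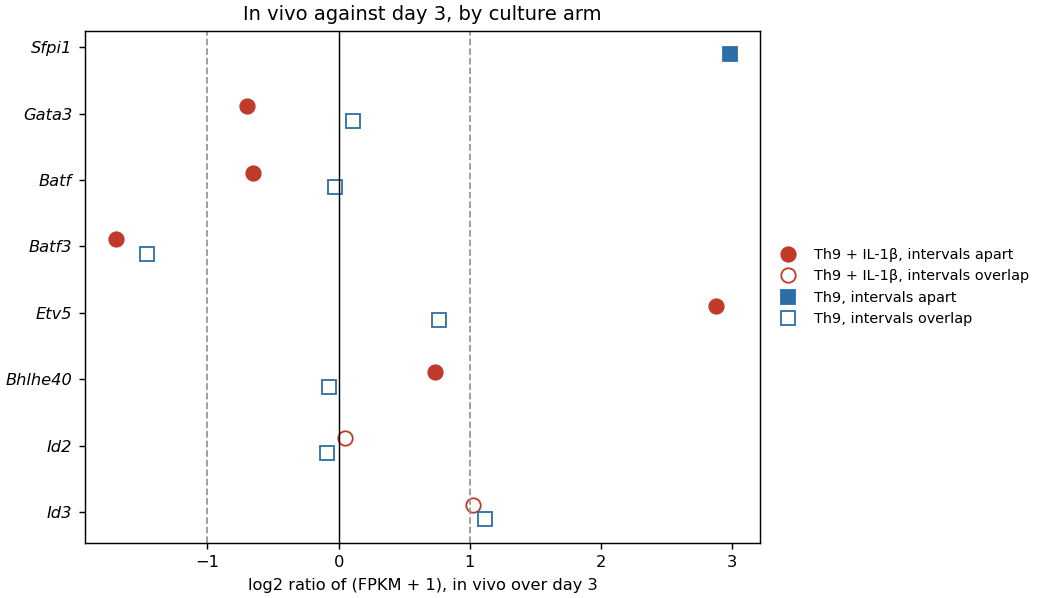
Log2 ratio of (FPKM + 1), in vivo over day 3 (horizontal axis), for each gene in the Th9 + IL-1β arm (circles) and the Th9 arm (squares). Filled marks have intervals apart, and dashed lines mark 2-fold. Batf3 lies at -1.70 with IL-1β and -1.46 without, and Id3 at 1.03 with IL-1β and 1.12 without. Sfpi1 of the IL-1β arm is left out because it was listed at 0 at day 3.

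Ratios between related genes within a library do not depend on a scaling factor of the library, but the length trend was not removed from them. Batf3 stood at 0.109 of Batf in vivo with IL-1β and at 0.237 of it at day 3 with IL-1β. Without IL-1β it stood at 0.0604 of Batf in vivo and at 0.178 of it at day 3. The share of Batf3 was thus lower in vivo in both arms. Id3 moved the other way against Id2, at 0.316 of Id2 in vivo and 0.157 of it at day 3 with IL-1β, and at 0.392 in vivo and 0.163 at day 3 without. With 1 library per point these ratios carry no test.

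**Figure D5:**
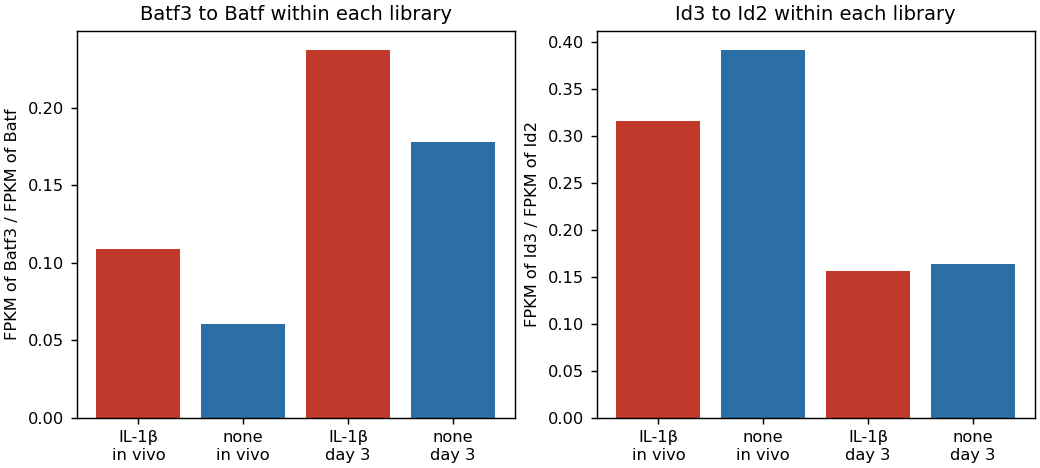
FPKM of Batf3 over that of Batf (left) and of Id3 over that of Id2 (right), with 1 bar per library (red for Th9 + IL-1β, blue for Th9) and axes from 0. Batf3 to Batf is between 0.0604 and 0.109 in vivo and between 0.178 and 0.237 at day 3, while Id3 to Id2 is between 0.316 and 0.392 in vivo and between 0.157 and 0.163 at day 3.

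Genes that work with the 8 factors were taken from fixed lists. For IL-1β against none, 6.23% of all compared genes were called higher and 3.48% lower in vivo, and 1.29% higher and 2.15% lower at day 3. Markers of some other cell types were called higher in the same in vivo comparison. They were 6 of 7 compared epithelial, 4 of 5 stromal, 4 of 12 myeloid, and 2 of 3 mast cell and basophil markers. The last list summed to 40.1 FPKM with IL-1β, against 9.56 FPKM without it, and Mcpt8, a basophil protease gene, had 16.1 FPKM in the IL-1β arm, against a listed 0 in the Th9 arm. Not all such lists rose. Of 3 compared B cell markers none was called higher and 1 was called lower, Cd79b, at 7.85 FPKM with IL-1β, against 23.8 FPKM without it. Of 2 compared NK and CD8 markers none was called. The part of all these cells in the counts of the lists was not tested. Of the E proteins and other Id genes, none of 3 was called at day 3 and 1 of 4 was called higher in vivo, the E protein gene Tcf4, at 6.10 FPKM with IL-1β, against 1.44 FPKM without it. Tcf3, which encodes the E2A proteins, stood at 55.6 FPKM with IL-1β, against 39.7 FPKM without it. Of the Batf partners and relatives none of 5 was called at day 3 and 2 of 5 were called higher in vivo, Jun at 134 FPKM with IL-1β, against 29.9 FPKM without it, and Junb at 703 FPKM with IL-1β, against 296 FPKM without it. Irf4, the factor that binds with Batf, stood at 85.8 FPKM in vivo with IL-1β, against 71.0 FPKM without it, and was not called. Of 12 other Ets genes, none was called in vivo, and at day 3 Elk4 was called lower, at 2.80 FPKM with IL-1β, against 7.96 FPKM without it.

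Upstream factors of Th9 and Th2 cells, such as Stat6 and the Smad genes, had 1 of 21 compared called higher in vivo with IL-1β, Maf, at 9.77 FPKM with IL-1β, against 2.85 FPKM without it. At day 3 none of 20 was called. Effector targets had 5 of 12 called higher in vivo (Il3, Il5, Il10, Ccl1 and Ccl22), beside 6.23% of all compared genes and 2 of 3 mast cell and basophil markers, with Ccl22, a ligand of the receptor Ccr4, at 143 FPKM with IL-1β, against 61.6 FPKM without it. At day 3, Il9 was the one called of 10. Other GATA and bHLH relatives had none of 1 called at day 3 and none of 2 in vivo. Factors of other helper states had none of 2 called at day 3 and 3 of 4 called higher in vivo with IL-1β, beside the same 6.23%. Bcl6, the follicular helper factor, stood at 8.03 FPKM with IL-1β, against 2.28 FPKM without it, Foxp3 at 13.3 FPKM with IL-1β, against 4.44 FPKM without it, and Eomes at 10.8 FPKM with IL-1β, against 4.59 FPKM without it.

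In vivo against day 3 without IL-1β, 1 gene of these 7 lists was called, Jun, at 29.9 FPKM in vivo and 5.55 FPKM at day 3. With IL-1β more were called, as was also so over all compared genes. Of these 12% were called higher and 5.87% lower with IL-1β, against 2.13% higher and 0.665% lower without. Among the called genes of the lists were Jun at 134 FPKM in vivo and 4.06 FPKM at day 3, Junb and Tcf4. Also called higher were 2 of 11 other Ets genes (Elf1 and Elk4) and 3 of 21 upstream factors (Notch1, Maf and Tcf7). The last 2 counts were not far above the 12%. Gata2, a relative of Gata3 known from mast cells and basophils, was called higher, at 6.56 FPKM in vivo and 0.996 FPKM at day 3 with IL-1β. Markers of mast cells and basophils summed to 40.1 FPKM in vivo and 12.7 FPKM at day 3 in that arm, and their part in the Gata2 difference was not tested. Bcl6 and Eomes were called higher, 2 of 4 factors of other helper states. Of 12 effector targets none was called higher and Il9 was called lower, at 49.6 FPKM in vivo and 274 FPKM at day 3.

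Patterns across the 6 libraries were compared by the distance between profiles of log2 (FPKM + 1), each centred on its own mean, among 8946 genes. For Id3 the nearest gene was Id1, of the same family, at a distance of 0.49. Id1 stood at 29.7 FPKM in vivo with IL-1β and 20.5 FPKM in vivo without, against 17.1 FPKM at day 3 with IL-1β and 10.9 FPKM at day 3 without. For Id2 the nearest genes were Ccl22 (0.40), Stra13 and Hsd17b10, for Bhlhe40 Zc3h10 (0.15), Pim3 and Mpv17, and for Gata3 Csk (0.31), Tubb4b and Chmp2a. For Batf they were Ndufc2 (0.32), Ssr2 and Cwc15, and for Batf3 Mrto4 (0.55), Cinp and Psmc3ip. For Etv5 they were Nrp1 (0.39), Ppbp and Ehd2, and for Sfpi1 Gm11428 (0.52), Gpihbp1 and Apoc1, all 3 of which were listed at 0 in the 4 culture libraries.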

How the data were processed

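RNA of 6 libraries in 6 groups was sequenced. Per the submitters' processing notes, reads were aligned with TopHat to mm9. Neither its version nor the program behind the gene values is given in the sources used here. The authors deposited FPKM per gene and bounds below and above it, per the file headers, which state no interval level and no depth. Of 23700 entries per file 285 were not OK and were left out, and entries of 1 symbol were summed. The rules for calls and the limma fit (limma 3.58.1, R 4.3.3, Benjamini-Hochberg adjustment over all genes with at least 5 FPKM in 1 library, threshold 0.05) are those given with the results. Other steps used Python 3.11.15 (pandas 2.3.3, numpy 2.4.6, statsmodels 0.14.6, scipy 1.17.1, matplotlib 3.10.9). Length trends used a lowess curve (fraction 0.3) over the longest GENCODE M21 transcript of each symbol. Starts of coordinates count from 1. Named genes are the 8, up to 4 called genes of each list with the largest log2 ratios, the 3 nearest genes of each of the 8, and markers. Spib, Stat6, Tcf3, Irf4, Il5 and uncalled Il9 values were named after their values were seen. The genes and lists were chosen with earlier results of these data known. The rules were tested on simulated data.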

Additional observations from a re-analysis of the deposited data

Results flagged for a closer look

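For 3 of the 8 genes the ratio of Th9 + IL-1β to Th9 had opposite signs in vivo and at day 3, with intervals apart in vivo and overlapping at day 3. In vivo alone, intervals lay apart upward in 9.91% and downward in 8.33% of all compared genes. The share of all genes with opposite signs as well was not counted. The 3 genes can therefore not be read as a trait of these factors. With 1 library per group the difference between stages was not tested. For Etv5 the log2 ratio was 1.66 in vivo and -0.46 at day 3, a difference of 2.11. At day 3 Etv5 was under 5 FPKM in both libraries, and its ratio there was -0.18 with a pseudocount of 5 and -0.71 with one of 0.1. Epithelial and stromal markers were highest in the same in vivo library. For Bhlhe40 the log2 ratio was 0.73 in vivo and -0.08 at day 3, a difference of 0.81. With the length trend removed the day 3 ratio of Bhlhe40 was 0.02 and the one in vivo 0.73, so the signs were no longer opposite. For Gata3 the log2 ratio was -0.74 in vivo and 0.07 at day 3, a difference of -0.81. With equal summed T cell markers Gata3 was at -0.56 in vivo and -0.07 at day 3, again with 1 sign.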

How the results depend on the processing

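Without a filter on low values 1 gene (Gata3) was called at 1 h instead of 0. Of all 23091 genes then compared, 385 were called higher and 6 lower. A fold minimum of 1.5, chosen after seeing the data, gave 1 call at day 3 instead of 0 (Id2), 4 in vivo instead of 1 (Etv5, Bhlhe40, Id2 and Gata3), and 6 for in vivo against day 3 with IL-1β instead of 3. Of all 7962 genes compared at day 3, this minimum called 291 higher and 736 lower. In vivo it called 761 higher and 566 lower of 8639. For in vivo against day 3 with IL-1β it called 1643 higher and 1023 lower of 8572. Without the intervals, 3 genes instead of 1 were called for in vivo against day 3 without IL-1β. Over all 8126 genes compared there, 238 were then called higher and 100 lower. For day 3 against 1 h, removing the length trend left 3 of 6 without IL-1β. It left 2356 higher and 129 lower of all 5034 genes then compared in that arm. Equal summed T cell markers, also chosen after seeing the data, left 3 with and 2 without IL-1β, and turned the log2 ratio of Bhlhe40 to -1.13 with and -1.44 without IL-1β (3.32 and 3.33 as reported). The cause was not tested. Of all compared genes, that scaling left 646 higher and 1612 lower of 5379 with IL-1β. Without IL-1β it left 795 higher and 658 lower of 5091. For in vivo against day 3, limma called 1 of the 8 genes, 0 with a pseudocount of 0.1, without a filter, after quantile normalization and with equal upper quartiles, and 2 with a pseudocount of 5 (Sfpi1 and Batf3). Of all 8946 genes limma called 202, with 48 at a pseudocount of 0.1 and 160 at a pseudocount of 5. Quantile normalization gave 25 and equal upper quartiles 4. Without a filter, 8 of 14968 were called. Batf3 in vivo against day 3 with IL-1β was called at a log2 ratio of -1.70 and not at -1.50 with equal upper quartiles, -1.36 with equal T cell markers or -1.11 without the length trend, where intervals overlapped. In those 3 settings Id3 was called higher, at 1.23, 1.37 and 1.45 in the same order, and with equal T cell markers Bhlhe40 was too, at 1.08. The count was then 3, 4 and 3 instead of 3, with other genes in it. Over all compared genes, 1451 of 8653, 1808 of 8743 and 948 of 8527 were called higher in the same order. Those called lower were 272, 178 and 349. The limma fits pair the arms by stage. Beyond that, no paired analysis was possible because the labels give no replicate numbers that groups share, and no replicate of a group of 1 library could be left out. Leaving out a stage in turn gave no call among the 8 for IL-1β against none, but the sign of several log2 differences turned. Without 1 h, Gata3 was at -0.33 (0.48 over all stages) and Batf at 0.16 (-0.54 over all stages). Without day 3, Sfpi1 was at 0.22 (-0.04 over all stages). Without the in vivo stage, Etv5 was at -0.23 (0.40 over all stages) and Bhlhe40 at -0.07 (0.20 over all stages). Depth is unknown, and the interval half-width had a median of 42.0% of the FPKM at 1 h with IL-1β and 69.8% without it. In the other libraries it was 23.5% to 27.0%.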
